A study of Homo sapiens with 6 samples.

Results

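The proteasome genes and the immunoproteasome were followed across TREX1 knockout and control cells. The members were all rows of the deposited expression table whose symbol begins with PSMA, PSMB, PSMC, PSMD, PSME, PSMF or PSMG, leaving out antisense and pseudogene symbols. This gave 49 of 14788 rows. Of these, 46 encode proteasome subunits, activators, an inhibitor or assembly chaperones. The other 3 rows, PSMC3IP, PSME3IP1 and PSMD14-DT, carry a matching symbol without being proteasome components. PSMA8 and PSMB11, the testis and thymus subunits of the family, have no row in the table used here.

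The proteasome is the protease that degrades ubiquitin-tagged proteins in the cytosol and nucleus. Its 20S core is a barrel of alpha and beta rings, of which some beta subunits carry the proteolytic sites, and the 19S cap recognises, unfolds and feeds in substrates. In cells exposed to interferon, PSMB8, PSMB9 and PSMB10 are built into new cores in place of PSMB5, PSMB6 and PSMB7, and the PA28 cap made of PSME1 and PSME2 is induced with them. This immunoproteasome is known for making peptides that TAP1 and TAP2 carry to MHC class I.

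Polyadenylated RNA of CAL51 cells, an established human triple-negative breast cancer line, was sequenced in 6 libraries. The TREX1 KO-1 and TREX1 KO-2 groups had received a CRISPR v2 lentivirus with a different guide RNA each, and each group and the control had 2 libraries. The control is not described further, and the sources used here do not say whether it carried a vector, a guide or Cas9, or how many clones stand behind a group. TREX1 degrades cytosolic DNA, and its loss is known to engage the cGAS-STING and interferon pathways. No row carries the symbol TREX1, so no check of the labels against the targeted gene was made. Since the 2 libraries of a group are nowhere said to be separate cultures, p-values reflect only how far these libraries spread, and that spread may be technical.

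The libraries held 16802681 and 18440036 reads over genes in KO-1, 13222933 and 20154836 in KO-2, and 22941234 and 25785055 in control, so 1 read was worth between 0.0383 and 0.0767 CPM (library-scaled counts). By counting error, a listed count of 0 allows a level of up to 3 reads, which is 0.115 to 0.23 CPM. Replicates differed most in KO-2, where the SD of the log2 difference over genes was 0.39, against 0.28 in KO-1 and 0.24 in control. Of 13 leukocyte markers only PTPRC, CD14 and ITGAM had a row, and their summed level was 19.9 and 22.0 CPM in KO-1, 17.5 and 17.7 CPM in KO-2, and 17.7 and 16.0 CPM in control. ESR1 and PGR, the receptors that triple-negative cells lack, had no row, ERBB2 ranged from 163.2 to 198.8 CPM, and 7 of 7 epithelial markers were present. Of these 7, KRT8, KRT18, KRT19 and EPCAM were called higher with each guide. Of all genes tested, 14.6% rose in KO-1 and 8.73% in KO-2, a comparison that was not tested. CDH1, KRT7 and CLDN4 were not called, at log2 fold changes of 0.3, 0.59 and -0.13 for the mean of both guides. For that mean EPCAM was no longer called without control replicate 2 (log2 fold change 0.13) or without either KO-1 library. In KO-2 alone, KRT8 and EPCAM were no longer called without any 1 library of control or KO-1. With either guide alone, KRT18 was no longer called without control replicate 1. The summed epithelial level was 2218.4 and 2209.8 CPM in KO-1 and 2201.5 and 2174.2 CPM in KO-2, against 1768.5 and 1805.8 CPM in control. In bulk RNA, fewer cells of a kind and less RNA per cell cannot be told apart.

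The bases before the transcription start are shown for 4 members, because interferon-responsive elements are known in such promoters. The 250 bases upstream of the first start listed by RefSeq (GRCh38.p14) were read for the 40 of 46 proteasome genes that have a window. 3 of these windows, those of PSMB10, PSME2 and PSMG4, held the same 10 letters near the start, and the PSMB9 window held none of that motif. PSMB10 lies at chr16:67936851-67937100 on the minus strand and PSME2 at chr14:24146611-24146860 on the minus strand. PSMG4 lies at chr6:3258697-3258946 on the plus strand and PSMB9 at chr6:32853942-32854191 on the plus strand. Sequences run 5′ to 3′ towards the start, and capitals mark matches to GAAA, any 2 bases and GAAA again, the core of the interferon-stimulated response element, or to TGACNNNGC, the core of the antioxidant response element that NFE2L1 and NFE2L2 bind.
PSMB10: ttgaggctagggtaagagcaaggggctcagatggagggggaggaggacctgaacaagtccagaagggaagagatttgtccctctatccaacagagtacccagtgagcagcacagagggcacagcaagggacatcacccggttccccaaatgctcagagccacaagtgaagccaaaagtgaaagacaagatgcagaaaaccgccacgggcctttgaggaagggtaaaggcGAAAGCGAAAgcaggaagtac
PSME2: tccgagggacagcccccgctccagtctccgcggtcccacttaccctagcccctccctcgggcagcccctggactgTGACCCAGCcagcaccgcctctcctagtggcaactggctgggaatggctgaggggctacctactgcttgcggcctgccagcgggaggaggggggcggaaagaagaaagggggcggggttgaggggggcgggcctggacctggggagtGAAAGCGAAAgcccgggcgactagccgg
PSMG4: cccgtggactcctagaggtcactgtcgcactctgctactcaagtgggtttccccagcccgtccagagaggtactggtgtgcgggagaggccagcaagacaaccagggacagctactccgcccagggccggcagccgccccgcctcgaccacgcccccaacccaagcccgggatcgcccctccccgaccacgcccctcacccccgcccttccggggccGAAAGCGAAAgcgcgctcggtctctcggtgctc
PSMB9: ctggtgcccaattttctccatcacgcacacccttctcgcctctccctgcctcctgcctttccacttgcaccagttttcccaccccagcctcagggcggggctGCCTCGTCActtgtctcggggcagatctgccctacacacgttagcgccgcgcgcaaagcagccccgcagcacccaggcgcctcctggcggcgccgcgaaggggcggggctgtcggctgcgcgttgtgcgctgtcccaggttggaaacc
The capitals in PSMB10, in the 3′ block of PSME2 and in PSMG4 read GAAAGCGAAA and end 12, 19 and 24 bases before the start. The capitals in PSMB9 are the antioxidant core on the other strand, and PSME2 holds that core upstream of its interferon core.

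The interferon core was present on either strand in 3.1% of 27305 RefSeq windows and in 5 of 40 proteasome windows, those of PSMA4, PSMB4, PSMB10, PSME2 and PSMG4. TGACNNNGC was in 11.0% of all windows and in 11 of 40, those of PSMB3, PSMB9, PSMD3, PSMD5, PSMD9, PSMD12, PSME1, PSME2, PSME4, PSMG1 and PSMG2. TTCNNNGAA, the core of the interferon-gamma activated site, was in 6.8% of all windows and in 4 of 40, those of PSMA2, PSMC4, PSMD3 and PSME3. No match of one motif overlapped a match of another in these windows. The 6 proteasome genes without a window are PSMA7, PSMB1, PSMB6, PSMB7, PSMD4 and PSMG3. A match describes the letters of a window and does not show a bound site.

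Most proteasome transcripts stayed near their control level in TREX1 knockout cells. For the mean of both guides, 2 of the 48 members that passed the filter on low values rose and 5 fell, or 7 in all. PSMB2 and PSMD10 rose, and PSMD13, PSMD4, PSME3, PSMG1 and PSMG4 fell (limma, Benjamini-Hochberg adjusted p below 0.05 over 13765 genes). Over all genes tested, 14.6% rose and 14.9% fell, 29.6% in all. The members' shares were below these in both directions, a difference that was not tested and that turned for lower members without KO-2 replicate 1. At an unadjusted p below 0.05 the members came to 17.

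Sizes were small as well as few. The median log2 fold change of the 46 proteasome genes was 0.00 and the median of its absolute value 0.10, against -0.01 and 0.19 over all genes tested. For 40 of the 46, or 87.0%, the 95% interval stayed within 0.5 of no change on the log2 scale. This held for 56.9% of all genes. Neither comparison was matched for abundance, so they do not show that the proteasome genes were unusually stable. The SE was wide for the scarce PSMB9, at 0.38, and narrow for the abundant PSMD2, at 0.04. The summed level of the 46 was 5957.3 and 5974.0 CPM in KO-1, 6321.8 and 5987.1 CPM in KO-2, and 6023.2 and 6010.1 CPM in control. KO-2 replicate 1, the shallowest library, was the one that stood above the rest, and it exceeded its replicate in 28 of 46 genes, with a median log2 difference of 0.07 over all 46. Without that library 5 of the 48 tested members were higher and 12 lower, where 21.1% and 21.5% of all genes rose and fell. Without KO-2 replicate 2 the counts were 9 and 6, where the shares of all genes were 21.6% and 22.5%. Without either control library they were 1 and 1, and without either KO-1 library 1 and 2, where each share of all genes was between 4.17% and 9.64%. With library medians set equal, 8 members rose and 2 fell, where 18.7% and 11.6% of all genes rose and fell. The median over all genes moved to a log2 fold change of 0.04, and the higher share of all called genes to 61.7%, against 49.4%. PSMD4, PSME3 and PSMG1 then lost their calls, at adjusted p 0.17, 0.075 and 0.08.

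**Figure D1:**
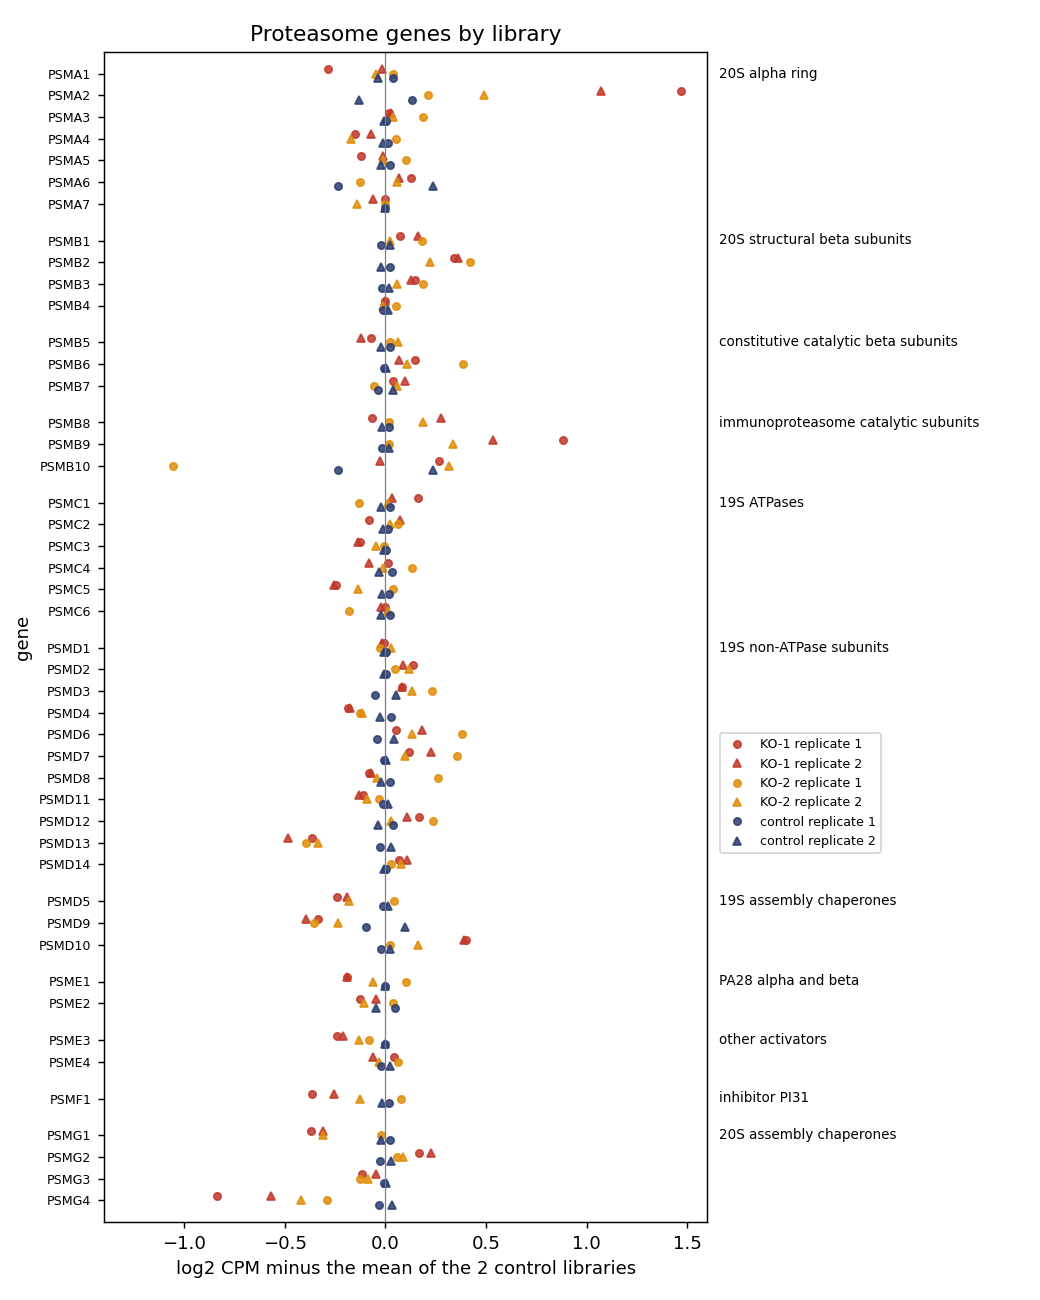
Log2 CPM of 46 proteasome genes in each library minus the mean of the 2 control libraries, with genes ordered by role from top to bottom. Red is KO-1, orange KO-2 and dark blue control, with circles for replicate 1 and triangles for replicate 2. Most points lie close to the control line, the 4 knockout points of PSMB2 lie right of both controls, and those of PSMD13 and PSMG4 lie left of both.

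Transcripts of the inducible catalytic subunits were sparse, and none was called with either guide. PSMB8, the inducible counterpart of the chymotrypsin-like PSMB5, had 8.99 and 11.4 CPM in KO-1, 9.51 and 10.7 CPM in KO-2, and 9.47 and 9.27 CPM in control. The groups overlapped, since one KO-1 library lay below both controls and the other was the highest of all. Its log2 fold change for both guides was 0.11 ± 0.14 (SE), with an adjusted p of 0.61. PSMB8 shares 20.6% of its exon bases with PSMB8-AS1 and PSMB9 on the opposite strand.

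PSMB9, the inducible counterpart of the caspase-like PSMB6, was the scarcest of them. It had 20 and 17 reads in KO-1, 8 and 16 reads in KO-2, and 14 and 16 reads in control. In CPM this came to 1.21 and 0.925 in KO-1, 0.613 and 0.794 in KO-2, and 0.6 and 0.613 in control. Both KO-1 libraries lay above all others, while one KO-2 library sat level with control. PSMB9 entered the test only through KO-1, whose 2 libraries alone reached a log2 CPM of 0, so its presence among the tested genes already favours a difference there. The log2 fold change was 0.71 ± 0.43 for KO-1 (adjusted p 0.25) and 0.18 ± 0.43 for KO-2 (adjusted p 0.81). Without the mean-variance trend the adjusted p for KO-1 was 0.049.

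PSMB10, which replaces the trypsin-like PSMB7, had 47 and 42 reads in KO-1, 14 and 59 reads in KO-2, and 46 and 72 reads in control. Its CPM was 2.83 and 2.29 in KO-1, 1.07 and 2.93 in KO-2, and 1.97 and 2.76 in control. The KO-2 libraries were the lowest and the highest of the 6. Limma gave a log2 fold change of -0.12 ± 0.36 for both guides (adjusted p 0.83). With KO-2 replicate 1 as the lone KO-2 library it was -1.05 for KO-2 against control (adjusted p 0.029), so that call rests on 14 reads in 1 library. The annotated exons of PSMB10 share 58.3% of their coding bases with AC040162.1 on the same strand, which makes its level uncertain.

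The PA28 cap genes were far more abundant. PSME1 had 94.0 and 94.5 CPM in KO-1, 115.4 and 102.8 CPM in KO-2, and 107.2 and 107.8 CPM in control. Both KO-1 libraries were below both controls and the KO-2 libraries lay on either side of them. On the log2 scale the change was -0.19 ± 0.07 for KO-1 (adjusted p 0.067), and without KO-2 replicate 1 or 2 in the shared fit its adjusted p was 0.0043 or 0.0042. PSME2 had 71.3 and 75.5 CPM in KO-1, 80.0 and 72.2 CPM in KO-2, and 80.5 and 75.7 CPM in control, so the groups overlapped. Its log2 fold change for both guides was -0.06 ± 0.07 (adjusted p 0.51).

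None of these 5 genes was called for both guides together or for either guide alone. Among the 31 constitutive 20S and 19S subunits, 1 was higher and 2 lower for both guides. In KO-1 alone 2 were higher and 3 lower, and in KO-2 alone 1 higher and 1 lower. Over all genes tested, 29.6% were called for both guides, 29.7% in KO-1 and 16.9% in KO-2. With only 5 genes, the lack of a call does not set them apart from these shares, and the difference was not tested. The median log2 fold change was -0.06 for the 5 and 0.02 for the 31. At an unadjusted p below 0.05 only PSME1 of the 5 was added, in KO-1. In the authors' deposited table none of the 5 passed a false discovery rate of 0.05 in KO-1 or KO-2 either. The depth bounds these statements unequally. The 95% interval for both guides ran from -0.2 to 0.42 for PSMB8, from -0.38 to 1.27 for PSMB9 and from -0.91 to 0.66 for PSMB10, but from -0.22 to 0.05 for PSME1 and from -0.21 to 0.09 for PSME2.

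**Figure D2:**
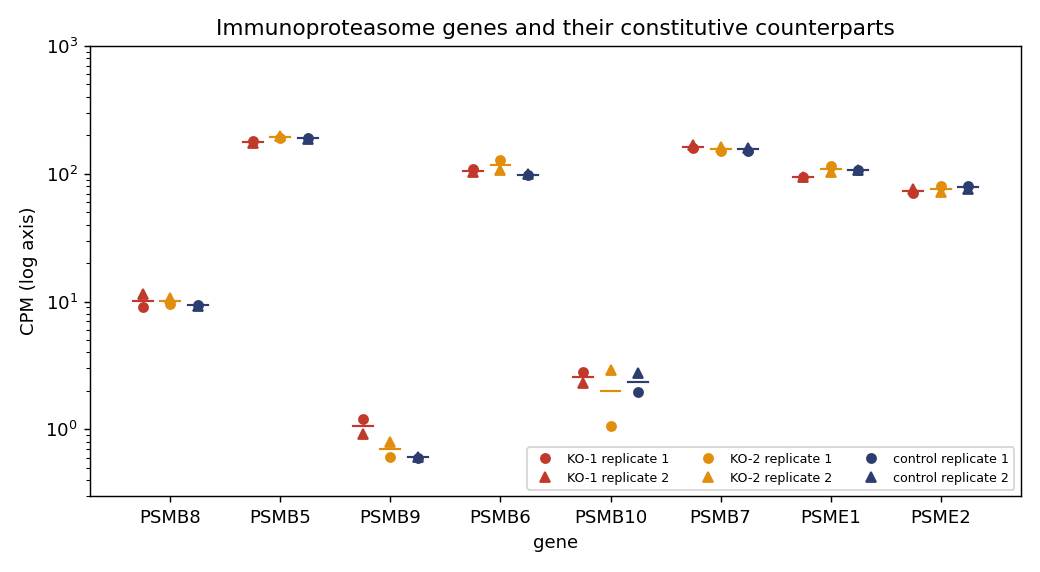
CPM on a log axis of the immunoproteasome subunits, their constitutive counterparts and PA28 genes. Points are libraries of KO-1 (red), KO-2 (orange) and control (dark blue), and the short line is the mean of a group's 2 libraries. PSMB8, PSMB9 and PSMB10 lie between 0.6 and 11.4 CPM, below PSMB5, PSMB6 and PSMB7 in every library.

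None of the constitutive catalytic subunits was called. PSMB5 had 179.8 and 174.0 CPM in KO-1, 191.2 and 196.5 CPM in KO-2, and 191.2 and 186.4 CPM in control, with a log2 fold change for both guides of -0.03 ± 0.05 (adjusted p 0.7). PSMB7 had 159.4 and 166.4 CPM in KO-1, 149.9 and 161.7 CPM in KO-2, and 151.8 and 159.7 CPM in control, at 0.03 ± 0.06 (adjusted p 0.69). PSMB6 was above both controls in all 4 knockout libraries, with 108.7 and 103.1 CPM in KO-1, 128.7 and 106.2 CPM in KO-2, and 98.2 and 99.0 CPM in control. Its log2 fold change was 0.17 ± 0.07 for both guides, with an adjusted p of 0.11. That adjusted p was 0.047 with library medians set equal. With KO-2 replicate 1, the highest library for PSMB6, as the lone KO-2 library, the log2 fold change for both guides was 0.24. PSMB6 was not called without KO-2 replicate 1.

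Per kilobase of principal transcript, the inducible subunits were a small fraction of their counterparts. PSMB8 stood at 5.75% and 7.52% of PSMB5 in KO-1, 5.72% and 6.25% in KO-2, and 5.7% and 5.72% in control. PSMB9 stood at 1.21% and 0.977% of PSMB6 in KO-1, 0.519% and 0.815% in KO-2, and 0.666% and 0.674% in control. PSMB10 stood at 1.43% and 1.1% of PSMB7 in KO-1, 0.576% and 1.46% in KO-2, and 1.04% and 1.39% in control. Constitutive catalytic transcripts outnumbered inducible ones in each of the 6 libraries.

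In the alpha ring, which gates the core, none of 7 genes was called for both guides together. PSMA1, PSMA3, PSMA4, PSMA5, PSMA6 and PSMA7 had log2 fold changes between -0.09 and 0.07. PSMA2 differed from them, with 42 and 35 reads in KO-1, 13 and 25 reads in KO-2, and 22 and 20 reads in control. Both KO-1 libraries, at 2.53 and 1.9 CPM, lay above both KO-2 libraries, at 0.997 and 1.24 CPM, and both controls, at 0.943 and 0.766 CPM. It changed on the log2 scale by 1.27 ± 0.36 in KO-1 (adjusted p 0.021) and 0.35 ± 0.36 in KO-2 (adjusted p 0.54). The KO-1 call was lost when any library of KO-1 or control was left out, with adjusted p between 0.068 and 0.16. PSMA2 shares 97.1% of its coding bases with AC010132.3 on the same strand, so its low count is uncertain.

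Among the structural beta subunits, PSMB2 was the member that rose with each guide. It had 282.5 and 285.6 CPM in KO-1, 297.4 and 259.6 CPM in KO-2, and 226.1 and 219.3 CPM in control. All 4 knockout libraries were above both controls. The change on the log2 scale was 0.34 ± 0.06 for both guides (adjusted p 0.0017), 0.35 ± 0.07 in KO-1 (adjusted p 0.0027) and 0.32 ± 0.07 in KO-2 (adjusted p 0.0098). The call for both guides held without any 1 library, while the call in KO-2 alone was lost without control replicate 1 or 2, at adjusted p 0.08 and 0.1. Without the mean-variance trend the KO-1 and KO-2 calls were lost too, at 0.058 and 0.11. PSMB1, PSMB3 and PSMB4 had log2 fold changes between 0.01 and 0.13 and were not called.

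Among the 19S ATPases, the ring that unfolds substrates, none was called for both guides together. The log2 fold changes of PSMC1, PSMC2, PSMC3, PSMC4, PSMC5 and PSMC6 ran from -0.15 to 0.02. In KO-1 alone PSMC5 fell, with 103.4 and 102.6 CPM in KO-1, 124.9 and 111.5 CPM in KO-2, and 123.1 and 121.2 CPM in control. The KO-1 libraries were the lowest 2 and the KO-2 libraries fell on both sides of control. The log2 fold change in KO-1 was -0.25 ± 0.07 (adjusted p 0.022), and the call was lost without any 1 library of KO-1 or control, at adjusted p between 0.12 and 0.15. PSMC5 shares 19.5% and PSMC1 75.8% of exon bases with a gene on the opposite strand, FTSJ3 and NRDE2. The sources used here do not give the strand setting of the counting, so reads of such partners cannot be told apart.

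Of the 11 other 19S subunits, PSMD13 and PSMD4 fell and 9 were not called. PSMD13, a scaffold subunit of the 19S lid, had 112.0 and 103.1 CPM in KO-1, 109.6 and 114.4 CPM in KO-2, and 142.2 and 146.6 CPM in control. The 4 knockout libraries were all below both controls. Limma put its log2 change at -0.4 ± 0.06 for both guides (adjusted p 0.00069), -0.43 ± 0.07 in KO-1 (adjusted p 0.00096) and -0.37 ± 0.07 in KO-2 (adjusted p 0.0053). The call for both guides held without any 1 library, and that in KO-2 was lost without control replicate 1 or 2, at adjusted p 0.063 and 0.077, and without the mean-variance trend, at 0.076. PSMD13 shares 6.6% of its exon bases with SIRT3 on the opposite strand.

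PSMD4, a receptor that binds ubiquitin chains, had 117.0 and 117.5 CPM in KO-1, 121.4 and 122.6 CPM in KO-2, and 135.2 and 130.6 CPM in control. Its groups did not overlap either, but the change was smaller, at -0.15 ± 0.05 on the log2 scale for both guides (adjusted p 0.048). The call was lost without any 1 library of control or KO-1, at adjusted p between 0.12 and 0.36. The other 9, namely PSMD1 and PSMD2 of the base, PSMD3, PSMD6, PSMD7, PSMD8, PSMD11 and PSMD12, and the deubiquitinase PSMD14, had log2 fold changes between -0.09 and 0.2. PSMD7 was highest of these, with 67.5 and 73.1 CPM in KO-1, 79.8 and 66.7 CPM in KO-2, and 62.3 and 62.7 CPM in control, and an adjusted p of 0.086.

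The chaperones that assemble the 19S base went in different directions. PSMD10, also called gankyrin, had 87.4 and 86.4 CPM in KO-1, 67.3 and 74.0 CPM in KO-2, and 65.4 and 67.2 CPM in control. KO-1 was clearly above the rest and KO-2 only just above control. The log2 fold change was 0.24 ± 0.06 for both guides (adjusted p 0.017), 0.39 ± 0.07 in KO-1 (adjusted p 0.0028) and 0.09 ± 0.07 in KO-2 (adjusted p 0.44). Leaving out any 1 library of control or KO-1 ended the call for both guides, at adjusted p between 0.06 and 0.18. PSMD5 and PSMD9 were not called, at -0.14 ± 0.07 (adjusted p 0.15) and -0.33 ± 0.14 (adjusted p 0.098).

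Chaperones of the 20S core held the largest decrease of any called member. PSMG4, which acts as a dimer with PSMG3 in building the alpha ring, had 10.5 and 12.7 CPM in KO-1, 15.4 and 14.1 CPM in KO-2, and 18.6 and 19.3 CPM in control. The groups were fully separated, with KO-1 lowest and KO-2 in between. Limma gave a log2 fold change of -0.53 ± 0.12 for both guides (adjusted p 0.0067), -0.71 ± 0.14 in KO-1 (adjusted p 0.0031) and -0.36 ± 0.14 in KO-2 (adjusted p 0.097). Leaving out control replicate 1 or 2 ended the call for both guides, at adjusted p 0.076 and 0.094. Its window is 1 of the 3 printed above with the interferon core, beside those of PSMB10 and PSME2, which were not called. The exons of PSMG4 share 15.0% of bases with SLC22A23 and TUBB2B on the opposite strand.

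PSMG1, which pairs with PSMG2, had 51.9 and 54.2 CPM in KO-1, 66.1 and 54.1 CPM in KO-2, and 68.1 and 66.2 CPM in control. One KO-2 library was level with control replicate 2 and the other 3 knockout libraries were below it. On the log2 scale the change was -0.25 ± 0.08 for both guides (adjusted p 0.041), and the call was lost without any 1 library of control or KO-1, at adjusted p between 0.093 and 0.26. The partners PSMG2 and PSMG3 were not called, at 0.13 ± 0.07 and -0.1 ± 0.08.

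Of the activators that interferon does not define, PSME3 fell and PSME4 was not called. PSME3, the nuclear PA28 gamma, had 216.7 and 221.4 CPM in KO-1, 241.4 and 233.6 CPM in KO-2, and 256.6 and 255.7 CPM in control. All knockout libraries were below both controls. Its log2 fold change was -0.17 ± 0.05 for both guides (adjusted p 0.019) and -0.23 ± 0.05 in KO-1 (adjusted p 0.0085). Without any 1 library of control or KO-1 it was not called for both guides, at adjusted p between 0.061 and 0.18. PSME4, the PA200 cap, had 187.2 and 174.3 CPM in KO-1, 189.4 and 178.1 CPM in KO-2, and 179.9 and 184.2 CPM in control, a log2 fold change of 0.00 with an interval from -0.12 to 0.12.

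PSMF1, the inhibitor PI31, separated KO-1 from the other groups. It had 87.0 and 93.4 CPM in KO-1, 117.3 and 102.1 CPM in KO-2, and 112.9 and 110.8 CPM in control. The change on the log2 scale was -0.31 ± 0.08 in KO-1 (adjusted p 0.012) and -0.03 ± 0.08 in KO-2 (adjusted p 0.82). The KO-1 call was lost without any 1 library of KO-1 or control, at adjusted p between 0.054 and 0.13. Both KO-1 libraries were the lowest of the 6, and the KO-2 libraries lay on either side of control.

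Set against control one guide at a time, KO-1 had 3 members higher (PSMA2, PSMB2 and PSMD10) and 7 lower (PSMC5, PSMD4, PSMD13, PSME3, PSMF1, PSMG1 and PSMG4), where 14.6% and 15.1% of all genes rose and fell, 29.7% in all. KO-2 had PSMB2 higher and PSMD13 lower, where 8.73% and 8.19% of all genes rose and fell, 16.9% in all. For KO-1 the share of members that fell was near that of all genes. In the authors' deposited table the same 10 members passed a false discovery rate of 0.05 in KO-1 and the same 2 in KO-2. The comparisons share their control libraries. In KO-1 the counts were 9 higher and 13 lower without either KO-2 library, where up to 22.6% of all genes rose and 22.9% fell. They were 2 and 2 without any 1 library of KO-1 or control, where each share of all genes was between 5.92% and 7.21%. In KO-2 they were 2 and 5 without KO-2 replicate 1, where 13.0% and 13.2% of all genes rose and fell, and 10 and 3 without KO-2 replicate 2, where 16.4% and 16.7% did. Without either control library they were 0 and 0, where at most 2.21% rose and 1.22% fell.

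The difference between the guides was tested directly as KO-2 against KO-1. No member was called in either direction by limma or in the authors' deposited table, where 0.334% of all genes rose and 0.806% fell by limma, 1.14% in all, and 9 members had an unadjusted p below 0.05. The nearest was PSMD10, at -0.3 ± 0.07 on the log2 scale (adjusted p 0.083), followed by PSMF1 at 0.28 ± 0.08 (adjusted p 0.12). PSMG4 stood at 0.35 ± 0.14 (adjusted p 0.22) and PSMA2 at -0.92 ± 0.36 (adjusted p 0.22). With KO-2 replicate 1 as the lone KO-2 library, that is without KO-2 replicate 2, 14 members were higher and 4 lower, where 11.2% of all genes rose and 11.8% fell. In that fit the lone library is assumed to vary like those of the other groups. PSMB2 and PSMD13 were close to equal between the guides, at -0.03 ± 0.07 and 0.06 ± 0.07.

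Levels per kilobase showed which members were scarce. The median over the 6 libraries ran from 0.752 CPM per kb for PSMA2 to 244.1 CPM per kb for PSMA7. Among the 31 constitutive subunits, PSMA2, PSMA6 and PSMA1 share at least 50% of their coding bases with another annotated gene on the same strand, and stood at 0.752, 4.31 and 16.5 CPM per kb. The 28 below that share lay between 15.0 and 244.1 CPM per kb, around a median of 93.1. PSMB10 and PSMD9 share as much and stood at 2.07 and 2.92 CPM per kb. PSMB8 and PSMB9, at 8.44 and 0.9 CPM per kb, share none on that strand. Each alpha subunit protein is known to enter the core in equal numbers, but RNA levels varied among the alpha genes without such overlap. Those ran from 29.7 CPM per kb for PSMA5 to 244.1 CPM per kb for PSMA7. Whether reads in shared exons were dropped from these genes was not tested.

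**Figure D3:**
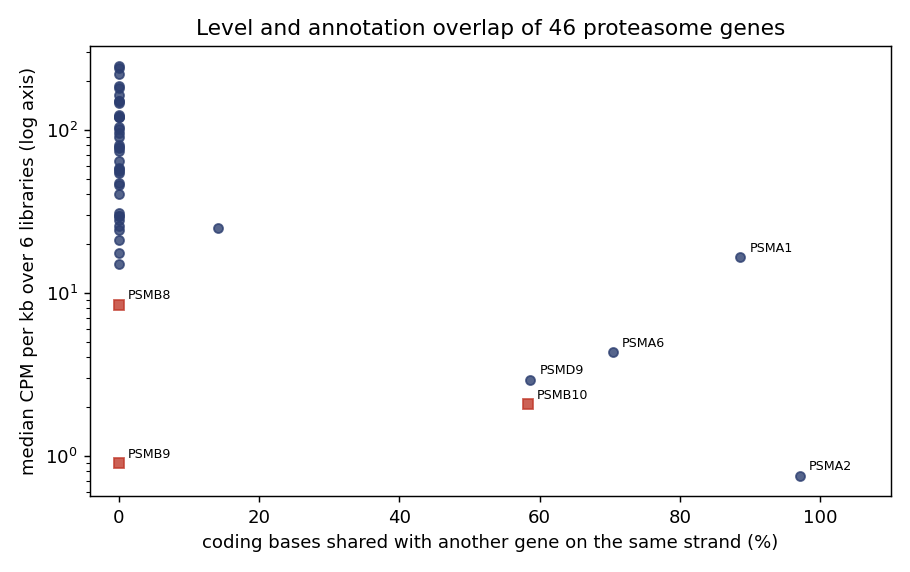
Median CPM per kb of principal transcript over 6 libraries (log axis) against the percent of a gene's coding bases shared with another gene on the same strand in GENCODE release 29, for 46 proteasome genes. Red squares are immunoproteasome subunits and blue circles the other genes. The 5 genes at 58.3% to 97.1% overlap lie between 0.752 and 16.5 CPM per kb, and most genes at 0 lie above 15.0.

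The 3 rows matched by symbol only were not called. PSMC3IP, a meiotic recombination factor, stood at 0.02 ± 0.16 on the log2 scale for both guides and PSME3IP1, a partner of PSME3, at -0.13 ± 0.08. PSMD14-DT, a transcript divergent from PSMD14, had between 6 and 9 reads in a library and did not pass the filter.

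Related genes with other symbols were listed as well. Of 13 assembly and accessory genes, 5 rose and 1 fell for the mean of both guides, around a median log2 change of -0.04. In KO-1 alone 5 rose and 2 fell, and in KO-2 alone 3 rose and 1 fell. ADRM1, TXNL1 and ZFAND5 were called with each guide, but POMP, AKIRIN2 and ECPAS not in KO-2. The KO-2 calls of ADRM1, TXNL1 and ZFAND5 were each lost without control replicate 1 or 2. Those of ADRM1 and TXNL1 in KO-1 were lost without any 1 library of control or KO-1. For this and the next 4 lists, fold changes are for the mean of both guides unless a guide is named. The shares of all genes tested that rose and fell were 14.6% and 14.9%, around a median of -0.01. In KO-1 alone they were 14.6% and 15.1%, and in KO-2 alone 8.73% and 8.19%. No list was tested against these shares. The shares moved when a library was left out or library medians were set equal, as given above for the members. List counts from those fits are therefore not to be read against 14.6% and 14.9%. ZFAND5, which stimulates proteasomes, had a log2 CPM of 8.86 and 8.88 in KO-1, 8.83 and 8.80 in KO-2, and 8.53 and 8.54 in control, a log2 fold change of 0.31 ± 0.04 (adjusted p 0.00039). TXNL1, a thioredoxin-like protein of the 19S cap, rose by 0.37 ± 0.08 (adjusted p 0.0049) and the ubiquitin receptor ADRM1 by 0.27 ± 0.06 (adjusted p 0.0058) on the log2 scale. ECPAS, which links proteasomes to membranes, fell by 0.24 ± 0.05 (adjusted p 0.006). The calls of TXNL1 and ECPAS were lost without control replicate 2, at adjusted p 0.077 and 0.12, that of ECPAS also without control replicate 1, at 0.054, and that of ADRM1 without control replicate 1 or 2, at 0.051 and 0.12. The 2 other genes that rose, the core maturation factor POMP at 0.22 ± 0.06 and AKIRIN2 at 0.23 ± 0.08, were named after their values were seen. Both calls were lost without control replicate 1 or 2, for POMP at adjusted p 0.13 and 0.16, for AKIRIN2 at 0.086 and 0.45. The list had 2 higher and 0 lower without control replicate 1, and 1 and 0 without control replicate 2. It had 3 and 1 without KO-1 replicate 2, and 5 and 3 without KO-2 replicate 2. Of these ubiquitin receptors of the cap, ADRM1 was higher and PSMD4 lower.

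Among 10 regulators of proteasome gene transcription, 4 rose and 0 fell, around a median log2 change of 0.06. With each guide alone NFE2L2, NFE2L3 and MAFF were called higher and NFE2L1 was not called. NFE2L3 had a log2 CPM of 2.89 and 2.86 in KO-1, 2.35 and 2.92 in KO-2, and 1.75 and 1.63 in control, a log2 fold change of 1.07 ± 0.19 (adjusted p 0.0023). MAFF, a small Maf partner of these factors, had 4.35 and 4.59 in KO-1, 4.38 and 4.44 in KO-2, and 3.75 and 3.71 in control, at 0.72 ± 0.11 (adjusted p 0.00075). NFE2L2, the oxidative stress factor, rose by 0.38 ± 0.07 (adjusted p 0.0021), a call lost without the mean-variance trend, at adjusted p 0.053. NFE2L1, which is known to restore proteasome genes when proteasomes are inhibited, stood at 0.13 ± 0.04 (adjusted p 0.041), a call lost with quantile normalization, without the mean-variance trend (adjusted p 0.15) and without any 1 library of control or KO-1, at adjusted p between 0.11 and 0.27.

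Ubiquitin and its delivery gave 2 higher and 4 lower of 16 genes, around a median log2 change of 0.02. In KO-1 alone FAF2 was higher and UBA1, UBQLN4 and FAF1 were lower. In KO-2 alone FAF2 was higher and UBA1 lower. FAF2, a VCP adaptor at the endoplasmic reticulum, rose by 0.34 ± 0.05 (adjusted p 0.0012), while UBA1, the main ubiquitin-activating enzyme, fell by 0.18 ± 0.04 (adjusted p 0.0056). The shuttle UBQLN1 rose by 0.16 ± 0.05 (adjusted p 0.034) and FAF1, a VCP cofactor, fell by 0.2 ± 0.06 (adjusted p 0.036). The calls of UBA1, UBQLN1 and FAF1 were each lost without control replicate 1 or 2, at adjusted p between 0.054 and 0.32. The list then had 1 higher and 0 lower, without either KO-1 library 1 and 1, and without KO-2 replicate 1 or 2 it had 4 and 4 or 5 and 4. With library medians set equal it had 4 higher and 1 lower, where 18.7% and 11.6% of all genes rose and fell.

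The list of interferon signalling genes, which also holds RFX complex subunits and NLRC5, gave 2 higher and 3 lower of 16 for both guides. The median log2 change was 0.11. In KO-1 alone IFNAR1, IFNGR1 and IRF1 were higher, and TYK2, RFXAP and RFXANK lower. In KO-2 alone no gene of the list was higher, and TYK2 and RFXAP were lower. RFXAP and RFXANK, subunits of the RFX complex at MHC promoters, fell by 0.83 ± 0.11 (adjusted p 0.00048) and 0.48 ± 0.09 (adjusted p 0.0037). The kinase TYK2 fell by 0.3 ± 0.07 (adjusted p 0.0066) and the receptor IFNGR1 rose by 0.33 ± 0.08 (adjusted p 0.0082). IRF1, named after its values were seen, had a log2 CPM of 3.71 and 3.72 in KO-1, 3.14 and 3.37 in KO-2, and 2.93 and 3.03 in control, at 0.5 ± 0.13 (adjusted p 0.014). The knockout libraries were all above control, with KO-1 highest. NLRC5, the MHC class I transactivator, stood at 0.00 with an interval from -0.57 to 0.56. Calls lost without 1 control library were those of RFXANK, at adjusted p 0.078 and 0.056, TYK2, at 0.071 and 0.094, and IFNGR1 without control replicate 2, at 0.15. IRF1 was lost without control replicate 1 or 2, at 0.16 and 0.091. The list had 1 higher and 1 lower without control replicate 1, 0 and 1 without control replicate 2, 5 and 3 without KO-2 replicate 1, and 6 and 4 without KO-2 replicate 2. With library medians set equal it had 6 higher and 3 lower, where 18.7% and 11.6% of all genes rose and fell. The called shares of all genes also moved with the library left out.

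Peptide transport and trimming gave 3 higher and 1 lower of 15 genes, around a median log2 change of 0.06. In KO-1 alone TAP1 and BLMH were higher and LAP3 lower, and in KO-2 alone TAP1 and B2M were higher. The KO-2 call of TAP1 was lost without control replicate 1 or 2, at log2 fold changes of 0.53 and 0.48 in KO-2. It was lost without the mean-variance trend too, at adjusted p 0.066. That of B2M was lost without any 1 library of control or KO-1, and without KO-2 replicate 1. The KO-1 calls of BLMH and LAP3 were lost without any 1 library of control or KO-1. TAPBP and LNPEP were called with neither guide alone. TAP1, whose start lies 488 bases from that of PSMB9 on the opposite strand, had a log2 CPM of 5.30 and 5.43 in KO-1, 4.92 and 5.08 in KO-2, and 4.53 and 4.48 in control. The log2 fold change was 0.68 ± 0.09 (adjusted p 0.00033), with all 4 knockout libraries above control. Its neighbour PSMB9 was not called for both guides (adjusted p 0.41) and passed the filter on low values only through KO-1. PSMB9 had 20 and 17 reads in KO-1, 8 and 16 reads in KO-2, and 14 and 16 reads in control. B2M, the MHC class I light chain, rose by 0.23 ± 0.06 (adjusted p 0.021) and tapasin, TAPBP, by 0.17 ± 0.06 (adjusted p 0.043), and the aminopeptidase LNPEP fell by 0.23 ± 0.07 (adjusted p 0.033). Each of these 3 calls was lost without control replicate 2, at adjusted p between 0.14 and 0.43. B2M and TAPBP were lost without control replicate 1 too, at 0.16 and 0.22. The list had 1 higher without any 1 library of control or KO-1, with 0 or 1 lower, and 5 higher and 3 lower without KO-2 replicate 2. Without KO-2 replicate 1 it had 3 higher and 2 lower.

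**Figure D4:**
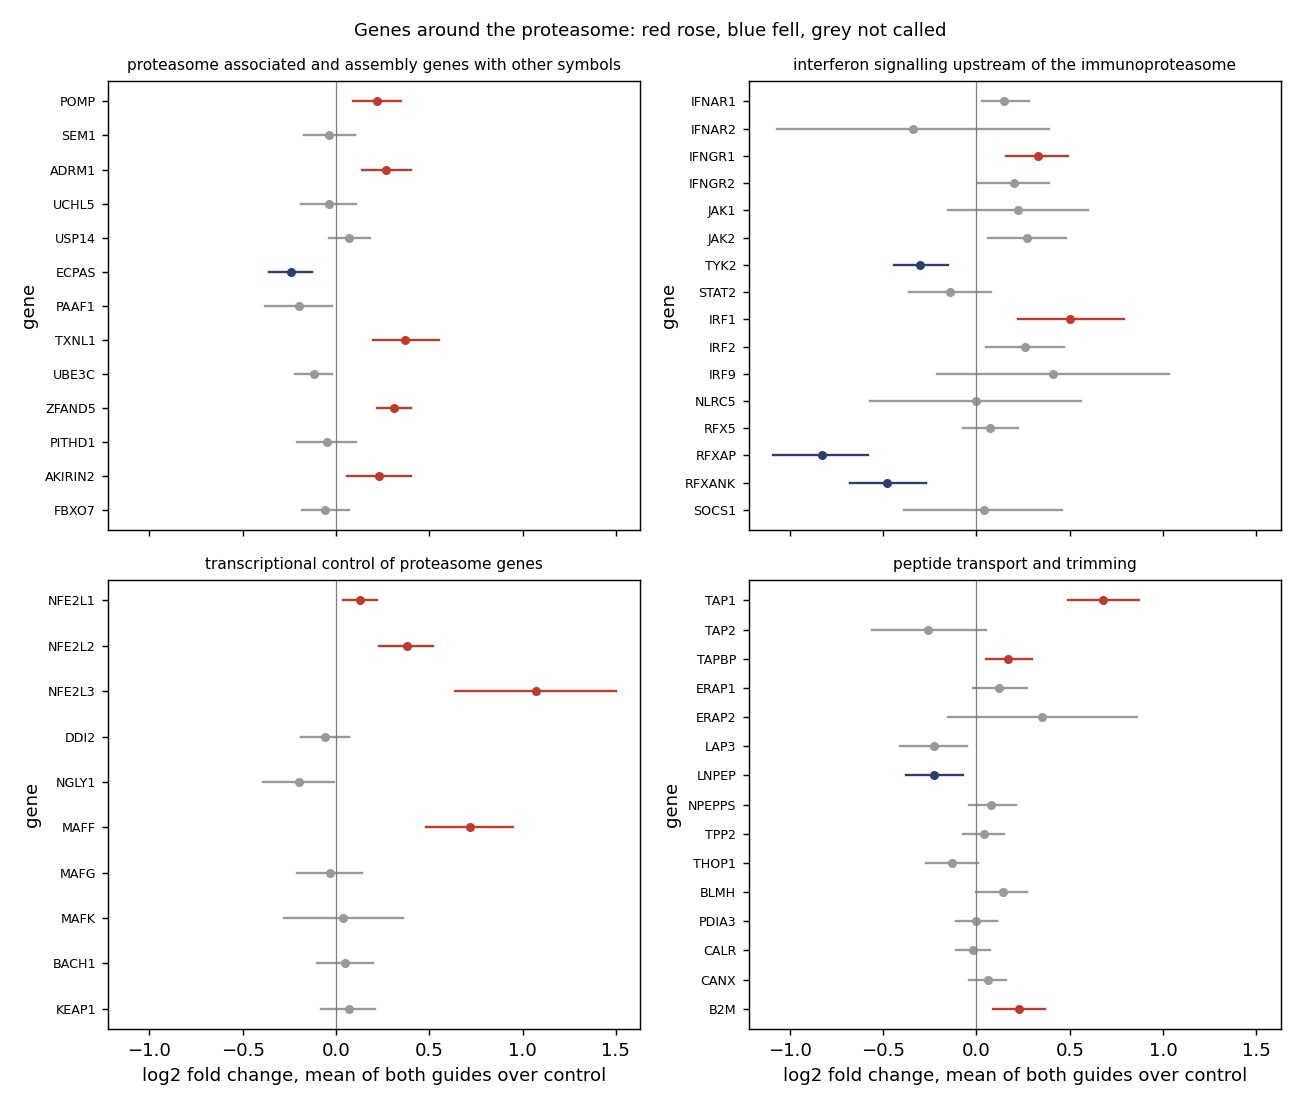
Log2 fold change, mean of both guides over control, with its 95% interval, for genes of 4 lists around the proteasome. Red genes rose, blue fell and grey were not called. NFE2L3 at 1.07, MAFF at 0.72 and TAP1 at 0.68 lie farthest right and RFXAP at -0.83 farthest left.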

How the data were processed

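The authors deposited expression values in log2 CPM (library-scaled counts) for 14788 genes and 6 libraries. The authors also deposited a table of comparisons with log2 fold changes, p-values and false discovery rates. Per the submitters' processing notes, the human build was hg38 and the tools were STAR 2.7, Subread 2.0 with featureCounts, fastp and edgeR. The sources used here do not give the annotation, the strand setting or the gene filter. All values (100%) were whole reads, within 0.01 reads, after a prior of 0.102 CPM was subtracted, which gave the depths.

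A gene was tested if at least 2 libraries reached a log2 CPM of 0 (13765 kept, 1023 removed). The deposited log2 values were fitted with limma (version 3.58.1, R 4.3.3) as group means over all 6 libraries, with a mean-variance trend, 3 residual and 8.02 prior degrees of freedom. Contrasts set the mean of both guides, KO-1 and KO-2 each against control, and tested the guides against each other. Genes were called at 0.05 after Benjamini-Hochberg adjustment over the whole table. Because the prior is part of each log2 value, changes of scarce genes are understated. Adjusted p-values for genes are from limma, errors after ± on fold changes are its SE, and intervals cover 95%.

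Library replicates differed by more than sampling noise (chi-square per degree of freedom 2.98 in KO-1, 8.27 in KO-2 and 3.66 in control), so none were merged. Members and gene lists were chosen with earlier results of these data known. A few listed genes are not reported here and were left out of the list counts. Named genes were PSMB8, PSMB9, PSMB10, PSME1, PSME2 and their counterparts, up to 4 called members at each end of each contrast, and for each list up to 4 genes with the smallest p. Other members are accounted for by role. Lengths and overlaps are from GENCODE release 29, by symbol, which matched 14769 of the symbols, and motif windows from RefSeq. Alternatives covered the filter, prior, scaling, trend, samples in the fit, a replicate block and leaving out each library. The mouse and single-cell data of the series were not analysed here.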

Additional observations from a re-analysis of the deposited data

How the results depend on the processing

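Limits: with 2 libraries a group and 3 residual degrees of freedom, calls of small changes depend on single libraries, and scarce members rest on few reads (8 to 20 in a library for PSMB9, 13 to 42 for PSMA2 and 14 to 72 for PSMB10). Over all alternatives, no result changed sign past a call. For both guides, leaving out 1 library gave 1 to 9 members higher and 1 to 12 lower, against 2 and 5. For KO-1 it gave 2 to 9 higher and 2 to 13 lower, against 3 and 7. For KO-2 it gave 0 to 10 higher and 0 to 5 lower, against 1 and 1, and for KO-2 against KO-1 0 to 14 higher and 0 to 4 lower, against 0 and 0. With library medians set equal, 8 members were higher and 2 lower for both guides, where 18.7% and 11.6% of all genes rose and fell. KO-1 then had 6 higher and KO-2 had 4 higher, where 18.4% and 11.4% of all genes rose. Without the mean-variance trend, 2 were lower for both guides and 2 lower in KO-1, where 8.51% and 8.96% of all genes fell. KO-2 then had 0 higher and 0 lower, where 0.618% and 0.559% of all genes rose and fell. With only the groups of a contrast in the fit, KO-1 had 9 higher and 13 lower, where 22.5% and 23% of all genes rose and fell. With quantile normalization, KO-2 had 2 lower, where 8.21% of all genes fell. The cause of these shifts was not tested. Other filters on low values and a prior of 1 CPM kept each count within 1.5 times. Same-numbered libraries did not deviate together (correlations of -0.04, -0.05 and 0.04), so the numbers do not pair the samples. With a replicate block, both guides gave 2 higher and 4 lower, KO-1 3 and 6, KO-2 1 and 1, and the difference between guides 0 and 0, and PSMD4 was the member that lost its call. The block left the ubiquitin list at 2 higher and 2 lower and the regulators at 3 higher, with NFE2L1 lost at adjusted p 0.067.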

Other observations

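The antisense and pseudogene symbols that the rule left out were PSMA3-AS1, PSMC1P1, PSMD6-AS2, PSME2P1 and PSMG3-AS1. PSMG3-AS1, which lies beside the assembly chaperone PSMG3 on the opposite strand, had 16 and 31 reads in KO-1, 29 and 41 reads in KO-2, and 60 and 76 reads in control. Its log2 fold change was -1.04 ± 0.33 in KO-1 (limma adjusted p 0.034) and -0.35 ± 0.33 in KO-2 (limma adjusted p 0.5), while PSMG3 itself stood at -0.08 ± 0.09 in KO-1. It was picked after its values were seen. PSME2P1, a processed copy of PSME2, had 12 to 34 reads in a library and PSMC1P1, a processed copy of PSMC1, 4 to 37. PSMA3-AS1 stood at 0.13 ± 0.1 on the log2 scale for both guides, and PSMD6-AS2 did not pass the filter on low values.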
